A study of Mus musculus with 29 samples.

Results

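The binding sites of Pou4f3 were compared between mouse embryonic stem cells that expressed Pou4f3 alone and cells that expressed it together with Atoh1. Chromatin immunoprecipitation followed by sequencing (ChIP-seq) recovers the DNA bound by a protein, and a peak is a stretch of genome where the recovered fragments exceed the local background. The list of kept peaks held 22433 Pou4f3 peaks in the line iPou4f3 and 17082 in the line iP+A. Windows of 300 bp centred on the peak summits were joined wherever they shared at least 1 bp, which gave 29601 sites. Of these, 9768 sites were shared by both lines, 12617 were found in iPou4f3 only and 7216 in iP+A only. The kept peaks of the whole series, over 9 lists, numbered 175162.

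Both lines came from the A2loxCre mouse embryonic stem cell line and carried a doxycycline-inducible cassette, which in iPou4f3 encoded Myc-tagged Pou4f3 and the fluorescent reporter Venus, and in iP+A also Flag-tagged Atoh1. Embryoid bodies, aggregates of differentiating stem cells, were collected on day 6 after 48 h with 2 µg/ml doxycycline, and Pou4f3 was precipitated with an antibody to Myc. All samples of the comparison were induced, so no uninduced background is given. Each list was called on 2 merged ChIP libraries against merged inputs. No value per replicate was therefore available, and the 95% intervals below cover counting error only, with neighbouring sites not independent of each other. Further lists were read beside the sites, for Pou4f3 in iG+P (with Gfi1) and iGPA (with Gfi1 and Atoh1), for Atoh1 in iP+A, iGPA, iG+A (with Gfi1) and iAtoh1 (alone), and for Gfi1 in iGPA. No expression values were analysed here, so the cell type of the embryoid bodies was not checked against markers.

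Pou4f3 is a transcription factor of the POU family that is required for the survival and maturation of the hair cells of the inner ear. Its paired DNA-binding domains, the POU-specific domain and the POU homeodomain, recognise AT-rich sequence. Atoh1 is a basic helix-loop-helix factor that starts hair cell development and also specifies several kinds of neurons. It pairs with E proteins and binds E-boxes, of which CAGCTG or CAGATG or CATATG are treated here as Atoh1-type.

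Some of the sequences at the sites are shown first, with coordinates on mouse build mm9 (NCBIM37) and letters read 5′ to 3′ on the plus strand. Capitals mark the Pou4f pattern (ATAATTAAT with at most 1 mismatch), ATAATG, or an Atoh1-type E-box, each on either strand. The Pou4f pattern was counted over both strands and contains TAATTA. Windows that touched an exon were reduced to 30 bp around the centre. The shared sites shown are the 5 with the best mean rank of fold enrichment over both lists. Fold enrichment is the authors' ratio of the ChIP signal to the local background, taken at the summit.
Shared, 29146 bp from Gm13203, chr4:148116898-148117017: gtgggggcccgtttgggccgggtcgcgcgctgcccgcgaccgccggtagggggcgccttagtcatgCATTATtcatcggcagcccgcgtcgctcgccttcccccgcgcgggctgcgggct
Shared, Osbpl7 and Gm11574, chr11:96912751-96912780: acacacagcgctcatgCATTATtgatctcc
Shared, Fcho1 exon, chr8:74233837-74233866: ctattatttgCATTATTTATgtaacccgcc
Shared, 288440 bp from 7SK, chr7:143412516-143412635: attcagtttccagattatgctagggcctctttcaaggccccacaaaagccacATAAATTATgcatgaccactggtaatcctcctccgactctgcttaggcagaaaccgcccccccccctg
Shared, Coro1b promoter, chr19:4148050-4148169: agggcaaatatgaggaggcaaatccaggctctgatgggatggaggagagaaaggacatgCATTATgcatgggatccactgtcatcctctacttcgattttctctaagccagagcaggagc

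The first site had the highest fold enrichment of both lists, 72.4 in iPou4f3 and 42.3 in iP+A, and lay between genes. The second, 20 bp upstream of a start of Gm11574 and inside Osbpl7, had folds of 49.2 and 33.2. The site in a non-coding exon of Fcho1, an endocytosis gene, had 40.0 and 19.4, and the intergenic site nearest a 7SK copy had 51.9 and 17.3. The site 509 bp upstream of Coro1b, which encodes an actin regulator, had 43.7 and 17.1. Of the 5 sites, 4 held CATTAT, the reverse complement of ATAATG, near the centre, and all 5 were also bound in both iG+P and iGPA.

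The next sequences are the 5 iPou4f3-only sites with the highest fold enrichment. They are shown because, in the letters printed, only the first contains ATAATG and none contains the Pou4f pattern.
iPou4f3 only, Ell promoter, chr8:73063448-73063567: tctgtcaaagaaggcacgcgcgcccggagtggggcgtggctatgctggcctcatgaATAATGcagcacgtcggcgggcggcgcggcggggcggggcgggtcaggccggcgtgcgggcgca
iPou4f3 only, Ipo13 promoter, chr4:117587729-117587848: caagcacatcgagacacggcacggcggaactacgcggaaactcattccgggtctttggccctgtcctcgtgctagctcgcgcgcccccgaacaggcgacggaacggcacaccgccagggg
iPou4f3 only, Slc35b1 promoter, chr11:95246086-95246115: tcttaaagccttccttctttcctagaacgc
iPou4f3 only, 33929 bp from Gm5546, chr3:104136547-104136666: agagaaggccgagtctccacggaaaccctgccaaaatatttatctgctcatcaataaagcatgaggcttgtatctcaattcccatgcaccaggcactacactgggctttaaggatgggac
iPou4f3 only, Foxp2 promoter, chr6:14851477-14851506: gagaaagcgcgagacacgccggcgcgtgca

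Among all iPou4f3-only sites the fold was highest at Ell, which encodes a transcription elongation factor, at 34.5. It was 11.4 at Ipo13, an importin, 10.8 at Slc35b1, a nucleotide sugar transporter, 9.98 at the site nearest Gm5546 and 8.44 at Foxp2, a forkhead transcription factor. Except for the site nearest Gm5546, each lay within 1 kb of a transcription start. To show the letters away from starts, the 2 highest iPou4f3-only sites over 1 kb from a start that held the Pou4f pattern follow, a choice made after their values were seen.
iPou4f3 only, Susd4 intron, chr1:184817121-184817240: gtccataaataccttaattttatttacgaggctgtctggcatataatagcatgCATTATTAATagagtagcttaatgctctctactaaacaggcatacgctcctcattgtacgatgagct
iPou4f3 only, Anks1b intron, chr10:90178355-90178474: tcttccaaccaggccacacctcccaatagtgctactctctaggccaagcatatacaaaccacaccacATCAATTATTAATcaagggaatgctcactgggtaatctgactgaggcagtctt

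Their folds were 7.01 at Susd4 and 6.89 at Anks1b, a scaffold protein of synapses. Both were bound by Pou4f3 in iG+P and iGPA and had no Atoh1 peak in any list. The corresponding iP+A-only sites by fold enrichment carried E-boxes beside AT-rich letters, apart from the site at Ell.
iP+A only, Ell promoter, chr8:73063058-73063177: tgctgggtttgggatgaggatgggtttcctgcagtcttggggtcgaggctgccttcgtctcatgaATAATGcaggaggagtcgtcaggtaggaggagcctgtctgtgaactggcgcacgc
iP+A only, 24648 bp from Kcnk16, chr14:21063676-21063795: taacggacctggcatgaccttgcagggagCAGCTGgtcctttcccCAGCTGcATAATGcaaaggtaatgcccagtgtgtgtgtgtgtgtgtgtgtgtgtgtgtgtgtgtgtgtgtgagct
iP+A only, Auts2 intron, chr5:132134739-132134858: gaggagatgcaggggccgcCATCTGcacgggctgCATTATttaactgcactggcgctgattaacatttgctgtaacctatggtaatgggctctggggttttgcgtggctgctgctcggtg
iP+A only, 1875 bp upstream of Tjap1, chr17:46421777-46421896: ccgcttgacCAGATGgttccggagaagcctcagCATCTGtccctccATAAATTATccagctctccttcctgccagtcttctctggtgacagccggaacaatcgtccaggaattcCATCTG
iP+A only, 310488 bp from Rbfox1, chr16:7528774-7528893: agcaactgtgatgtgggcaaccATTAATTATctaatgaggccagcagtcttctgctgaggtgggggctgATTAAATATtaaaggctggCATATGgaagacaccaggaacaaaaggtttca
iP+A only, Il17ra intron, chr6:120422245-120422364: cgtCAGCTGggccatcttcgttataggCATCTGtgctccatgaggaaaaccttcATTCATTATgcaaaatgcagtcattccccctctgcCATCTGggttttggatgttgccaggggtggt

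The folds in iP+A were 16.0 at Ell, 10.6 at the site nearest Kcnk16 (a potassium channel gene), 9.28 in Auts2, a gene of neuronal development, 7.36 upstream of Tjap1 and 6.79 nearest Rbfox1, a regulator of neuronal splicing. The Il17ra site, with a fold of 5.77, was added after its values were seen, as a further site with both patterns. Sites of this kind with higher folds, 6.34 nearest a 5S_rRNA copy and 5.89 in Gm16191, are not shown. All of the sites shown except the Ell site had Atoh1 peaks in both iP+A and iGPA. Only the Tjap1 site had one in iAtoh1 as well.

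The Ell promoter appears in both unshared classes. In iPou4f3 the summit window was centred 66 bp upstream of the start, in a peak at chr8:73062428-73063768 that spanned 1341 bp. In iP+A it was centred 456 bp upstream, in a peak at chr8:73062894-73063719 that spanned 826 bp, and a weaker iP+A-only site (fold 3.40) lay 891 bp upstream. The called peaks of both lines overlapped there while their summit windows did not, so this locus was unshared by summit and not by peak extent. The iPou4f3-only site had Atoh1 peaks in iP+A and iGPA, while the iP+A-only site centred 456 bp upstream had no Atoh1 peak in any list.

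Shared sites made up 43.6% of the 22385 iPou4f3 sites (95% interval 43.0 to 44.3) and 57.5% of the 16984 iP+A sites (56.8 to 58.3). Where a site was shared, the summits lay a median of 24 bp apart, and 73.7% of shared sites had them within 50 bp. At the edge of the rule, 145 iPou4f3 peaks had the nearest iP+A summit less than 50 bp inside the 300 bp limit and 135 had it less than 50 bp outside, against 7147 with a summit under 50 bp away. A kept summit of the other line lay within 1000 bp of 9.42% of iPou4f3-only sites and 15.4% of iP+A-only sites.

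Strong sites were nearly always shared. Of the iPou4f3 sites with a −log10 p of at least 50, 857 of 862 were also iP+A sites (99.4%, 98.7 to 99.8), while below 5 this held for 224 of 1693 (13.2%, 11.7 to 14.9). In the other direction 216 of 225 iP+A sites at 50 or above were shared (96.0%, 92.5 to 98.2), and 292 of 908 below 5 (32.2%, 29.1 to 35.3). Median fold enrichment was 4.16 in iPou4f3 and 3.40 in iP+A at shared sites. It was 3.09 at iPou4f3-only sites and 2.94 at iP+A-only sites, with 90th percentiles of 4.04 and 3.62.

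**Figure D1:**
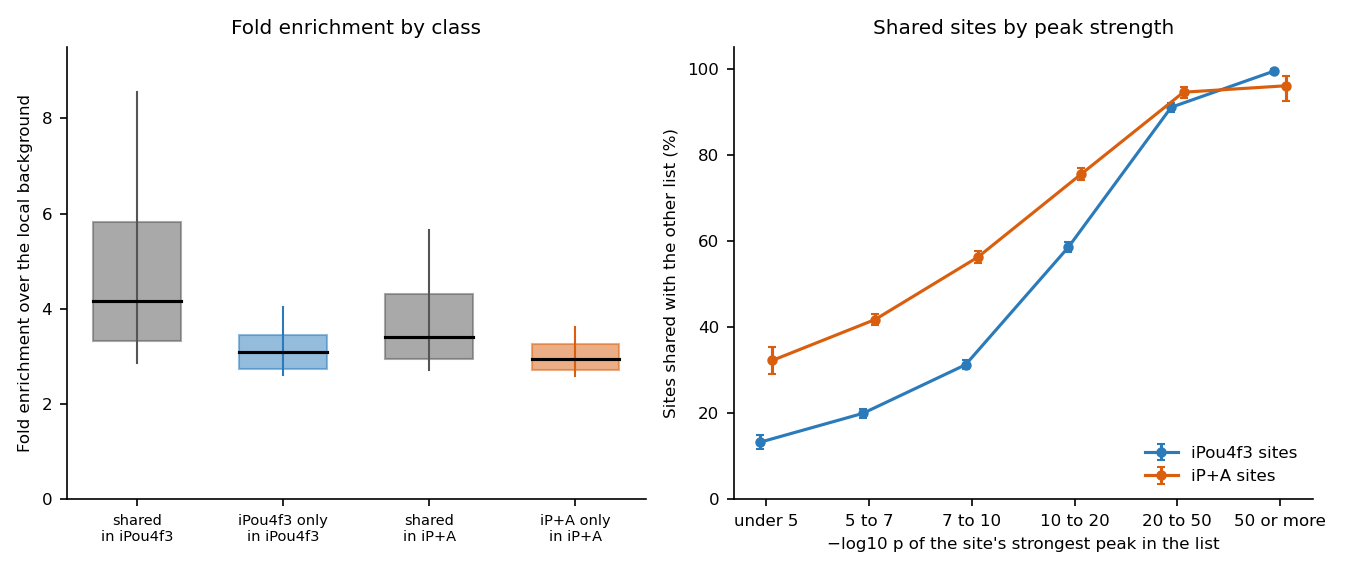
Fold enrichment and sharing of Pou4f3 sites. Boxes span the quartiles and whiskers the 10th to 90th percentile of fold enrichment per class, and points give the percentage of each line's sites that were shared per range of −log10 p, with exact 95% intervals. The shared percentage ran from 13.2% to 99.4% over the iPou4f3 ranges and from 32.2% to 96.0% over the iP+A ranges.

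The lists differed in how many peaks were kept and in the background behind them. The authors' files held 26760 called peaks for iPou4f3, of which 16.2% were not kept, and 24953 for iP+A, of which 31.5% were not kept. The rule behind this selection is not given in the sources used here. From fold and p, the most frequent local background was computed as 7.41 fragments in iPou4f3 and 7.83 in iP+A, and the smallest recovered pileups were 19 and 20 fragments.

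The iP+A-only sites were unevenly spread along the genome. Dense clusters, defined after the data were seen as places with at least 8 sites of either list within 50 kb to either side, held 32.1% of iP+A-only sites (31.0 to 33.2), 8.50% of iPou4f3-only sites and 7.08% of shared sites. Sites meeting this rule were chained into 190 clusters with 4078 sites. Neighbours that did not meet it themselves were not counted, so some clusters held only 1 site. The 10 largest held 52.4% of the sites in clusters. In each of those 10, iP+A-only sites outnumbered iPou4f3-only sites, and over all 190 clusters they did so in 92. The largest, at chr14:3489040-6838858, held 652 sites, of which 366 were iP+A only, 207 iPou4f3 only and 79 shared. A cluster of 162 sites on chromosome 13 covered Prl2c3 and Prl2c2, genes of the prolactin family, and 106 of its sites were iP+A only. Among autosomes, the shared percentage of iP+A sites ran from 36.1 on chromosome 14 to 68.9 on chromosome 11.

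Sequence in many of these places was repeated in the genome. The central 31 bp occurred more than once at 96.9% of the sites in the largest cluster. In the clusters at Isl1 and at Hes1, each of 8 sites, it did so at 0%. Over all sites, clustered or not, the shares were 36.3% of iP+A-only, 13.5% of iPou4f3-only and 12.6% of shared sites. Leaving out dense clusters thus removes some sites with unrepeated centres and keeps some with repeated centres. Called peaks that were not kept were also frequent in dense clusters. Of those of iP+A 48.0% lay in them and of those of iPou4f3 26.4%, against 17.8% and 7.95% of kept peaks. The part of repeated sequence in the difference between the lines was not tested. Each main comparison below is therefore also given outside dense clusters, where 9076 sites were shared, 11545 were iPou4f3 only and 4902 iP+A only, and where shared sites made up 64.9% of iP+A sites (64.1 to 65.7).

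The unshared sites of the lines also differed in the Atoh1 peaks at them. An Atoh1 peak of iP+A lay at 32.9% of iP+A-only sites, 11.3% of iPou4f3-only sites and 20.6% of shared sites. The difference between the unshared classes was 21.6 percentage points (20.3 to 22.8), and outside dense clusters it was 17.6 (16.2 to 18.9), with shares of 27.2% and 9.61%. The Atoh1 and Pou4f3 lists of iP+A come from the same line and are set against the same inputs, so Atoh1 lists of other lines were read as well. With the iGPA list the shares outside dense clusters were 25.9% and 12.9%, a difference with an interval of 11.7 to 14.4 points. With iAtoh1, where no Pou4f3 was induced, they were 11.0% and 5.71%, a difference of 5.27 points (4.32 to 6.26), and with iG+A 12.5% and 9.20%, a difference of 3.29 points (2.24 to 4.37). All 4 Atoh1 lists were thus found more often at iP+A-only sites. Outside dense clusters the margin was smaller in the lines without Pou4f3. Over all sites that order did not hold, as the iAtoh1 margin was no smaller than the iGPA margin. How far the margins differ from each other was not tested.

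**Figure D2:**
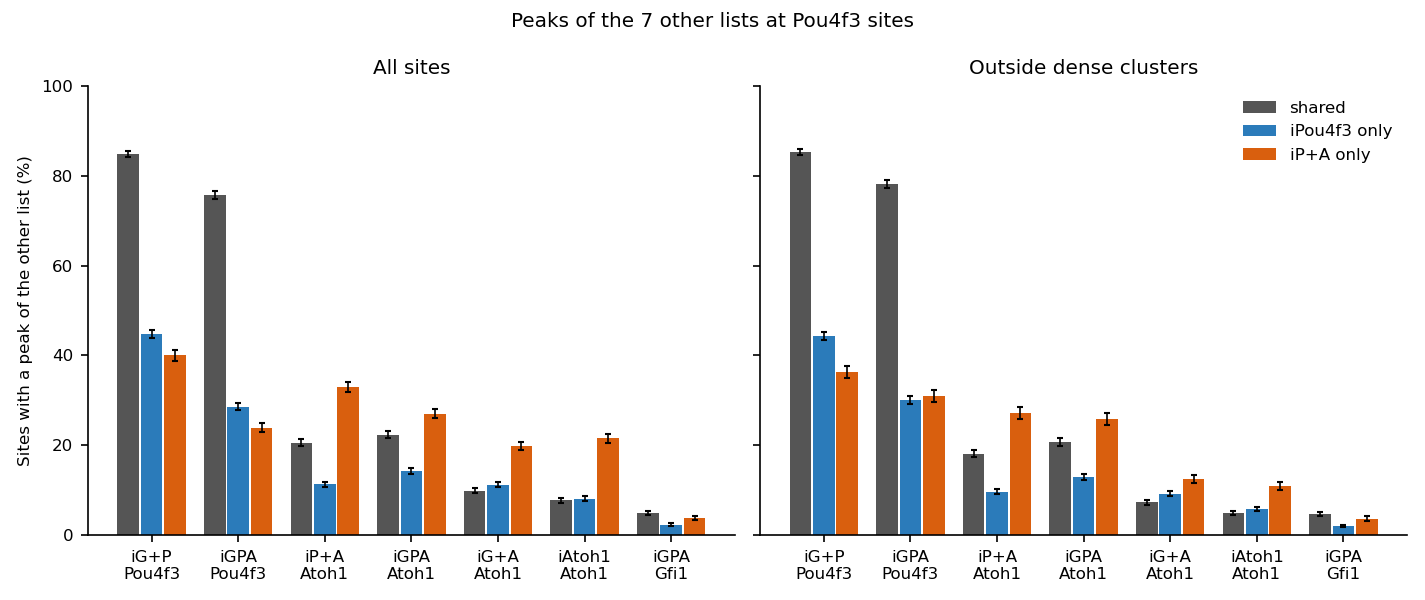
Percentage of Pou4f3 sites of each class that overlapped a site of 7 other lists, with exact 95% intervals. Shared sites stand highest for the Pou4f3 lists of iG+P (84.9%) and iGPA (75.7%), and iP+A-only sites stand highest for the 4 Atoh1 lists, for example 32.9% against 11.3% of iPou4f3-only sites for Atoh1 in iP+A.

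The margin for iP+A Atoh1 peaks lay mainly away from promoters. More than 1 kb from a start and outside dense clusters, an iP+A Atoh1 peak was present at 27.5% of 3684 iP+A-only sites, 15.0% of 7095 shared sites and 4.46% of 7245 iPou4f3-only sites. Within 1 kb of a start the shares were 26.3%, 29.6% and 18.3%. The difference between unshared classes was 23.0 points (21.5 to 24.5) at distal sites and 7.99 points (5.32 to 10.8) at promoters.

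Pou4f3 binding in the lines with Gfi1 was most frequent at shared sites. Of the shared sites, 71.0% were bound in both iG+P and iGPA, while 49.3% of iPou4f3-only sites and 3610 of the 7216 iP+A-only sites were bound in neither. Pou4f3 in iGPA was found at 23.9% of iP+A-only and 28.6% of iPou4f3-only sites, a difference of −4.72 points (−5.97 to −3.45), and Pou4f3 in iG+P at 40.0% and 44.7%, a difference of −4.75 points (−6.17 to −3.32). Over all sites the differences in these lists were thus of like size, and they moved apart when dense clusters were left out. Outside dense clusters, Pou4f3 in iGPA, which also expresses Atoh1, was found at 31.0% of iP+A-only and 30.1% of iPou4f3-only sites, a difference of 0.922 points whose interval of −0.610 to 2.47 includes 0. Pou4f3 in iG+P, without Atoh1, was found at 36.4% and 44.4%, a difference of −8.06 points (−9.67 to −6.43).

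Within the iP+A-only sites outside dense clusters, the 1332 with an iP+A Atoh1 peak differed from the 3570 without one. An Atoh1-type E-box was present in the central 250 bp of 64.1% (61.5 to 66.7) against 30.3% (28.8 to 31.8). The longer 10-letter Atoh1 E-box consensus was present in 13.9% against 2.27%, and CAGCTG in 35.1% against 10.7%. The Pou4f pattern was less frequent in the sites with Atoh1, at 21.9% (19.7 to 24.2) against 34.3% (32.7 to 35.9). These contrasts in letters were not particular to iP+A-only sites. At shared sites outside dense clusters, CAGCTG was present in 29.8% with an iP+A Atoh1 peak against 8.41% without one. The 10-letter consensus was present there in 7.83% against 1.06%, and the Pou4f pattern in 36.4% against 56.4%. Pou4f3 in iGPA was found at 43.0% of the iP+A-only sites with an Atoh1 peak and 26.5% of those without. For iG+P the order was the other way, at 30.3% and 38.6%. Over all iP+A-only sites that order for iG+P turned, at 42.4% (40.4 to 44.4) with an Atoh1 peak and 38.8% (37.4 to 40.2) without, while iGPA kept its order at 29.3% and 21.2%. Of the 1332 sites, 67.9% had an Atoh1 peak in iGPA and 27.4% in iAtoh1. The Pou4f3 and Atoh1 summits of iP+A lay a median of 40 bp apart at these sites, and 56.8% were within 50 bp.

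The iPou4f3-only sites at which Atoh1 was bound in iP+A lay mostly near starts. Outside dense clusters there were 1109, and 70.9% of them lay within 1 kb of a start, against 24.0% of the corresponding iP+A-only sites. The Pou4f pattern was present in 6.31% and an Atoh1-type E-box in 40.5%. At iPou4f3-only sites without an iP+A Atoh1 peak the shares were 39.6% and 23.5%, so both contrasts ran as in the other classes. At the 1109 sites, an Atoh1 peak was also present in iAtoh1 at 36.4% and in iG+A at 45.6%.

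For each list, shared sites were ranked among themselves by fold enrichment, since it was not placed on a common scale between lists. The ranks of a site in both lists were then compared. Where iP+A had an Atoh1 peak, the median percentile rank was 49.0 in iPou4f3 and 65.0 in iP+A outside dense clusters, and 64.9% of the 1647 sites ranked higher in iP+A. Without such a peak, the medians were 52.8 and 43.8, and 43.3% of 7429 sites ranked higher in iP+A. With the iAtoh1 list in its place, 58.5% of 436 sites with an Atoh1 peak and 46.7% of 8640 sites without one ranked higher in iP+A. Since these ranks are relative to the other shared sites, a rise of some sites implies a fall of others.

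The letters at the site centres separated the classes. In the central 250 bp the Pou4f pattern was present in 51.4% of shared sites (50.4 to 52.4), 34.7% of iPou4f3-only sites (33.9 to 35.6) and 25.3% of iP+A-only sites (24.3 to 26.4). The difference between the unshared classes was −9.39 points (−10.7 to −8.08), and outside dense clusters, with shares of 36.4% and 30.9%, it was −5.45 points (−7.01 to −3.88). Windows 1000 bp to each side held it in 10.4%, 9.71% and 10.5%, and a grid of 25573 windows of the same length over the genome in 11.5%. Without a mismatch it was present in 10.1%, 6.43% and 3.46%, against 0.657% of the grid. ATAATG was present in 33.0%, 19.3% and 16.3%, against 14.6% of the grid.

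Atoh1-type E-boxes had the opposite order in the unshared classes. They were present in 36.4% of iP+A-only sites (35.3 to 37.5), 25.3% of iPou4f3-only sites (24.5 to 26.1) and 30.9% of shared sites (30.0 to 31.8), against 32.0% of the grid. The share of iP+A-only sites was above that of their flanks (30.5%), while that of iPou4f3-only sites was below theirs (29.5%). The difference between the unshared classes was 11.1 points (9.78 to 12.5), and outside dense clusters 14.4 points (12.8 to 15.9). The 10-letter consensus was present in 4.39%, 1.18% and 2.31% in the same order, against 1.99% of the grid. Of the other E-boxes searched, CACCTG was present in 14.5% of iP+A-only and 15.6% of iPou4f3-only sites, and CACGTG in 2.91% and 5.03%.

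**Figure D3:**
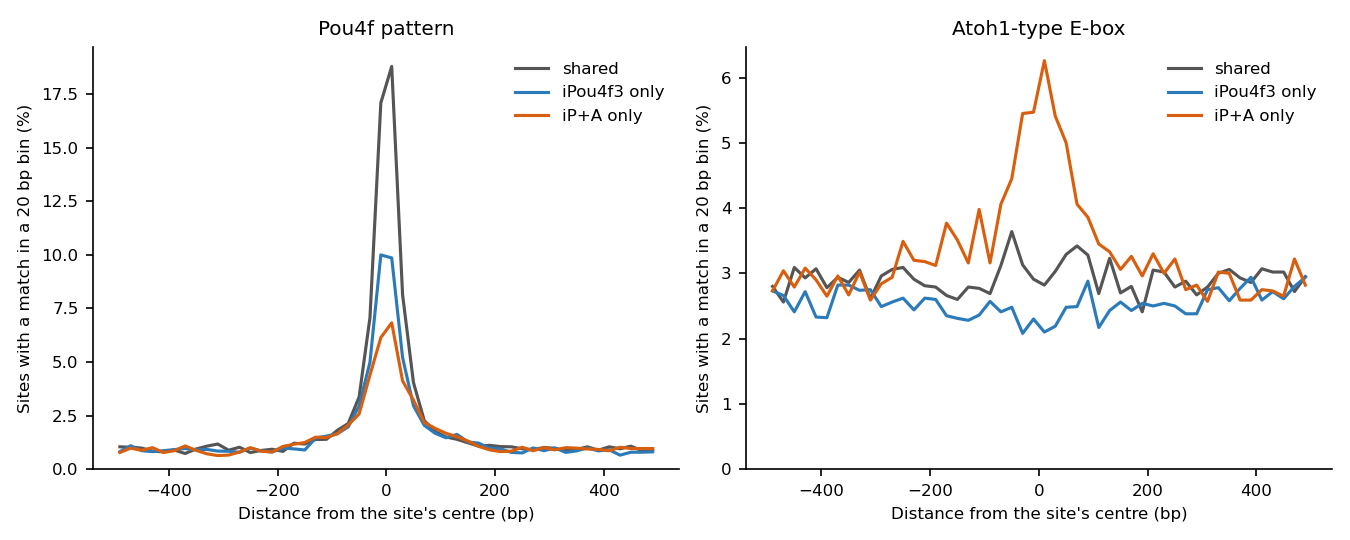
Percentage of sites with the start of the Pou4f pattern (left) or an Atoh1-type E-box (right) per 20 bp bin of distance from the site centre, outside dense clusters. In the bin from 0 to 20 bp the Pou4f pattern reached 18.8% at shared, 9.86% at iPou4f3-only and 6.83% at iP+A-only sites, and the E-box 2.82%, 2.10% and 6.26%.

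Among all 6-letter words, AATAAT exceeded its flank share most in each class within the central 100 bp. It was present in 49.2% of shared sites against 7.30% of flanks and in 28.3% of iPou4f3-only sites against 7.24%. AATTAT came next in both classes, at 36.8% and 23.1%. For shared sites the next words were ATAATG and then ATAAAT, while in both unshared classes they were ATAAAT and then TAAATA. These words overlap each other and the Pou4f pattern.

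The contrasts depended on the distance to a start. More than 1 kb away and outside dense clusters, the Pou4f pattern was present in 62.5% of shared, 54.4% of iPou4f3-only and 39.4% of iP+A-only sites, and the difference between the unshared classes was −15.0 points (−16.9 to −13.0). Within 1 kb of a start it was present in 18.2%, 6.07% and 5.42%, and flanks held it in 8.30%, 7.69% and 6.65%. The promoter sites of both unshared classes therefore held the pattern no more often than the sequence beside them, and the interval of their difference, −2.02 to 0.919 points, included 0. Atoh1-type E-boxes at distal sites were present in 34.1%, 27.9% and 44.7% in the same order, and at promoters in 20.0%, 20.4% and 23.8%.

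**Figure D4:**
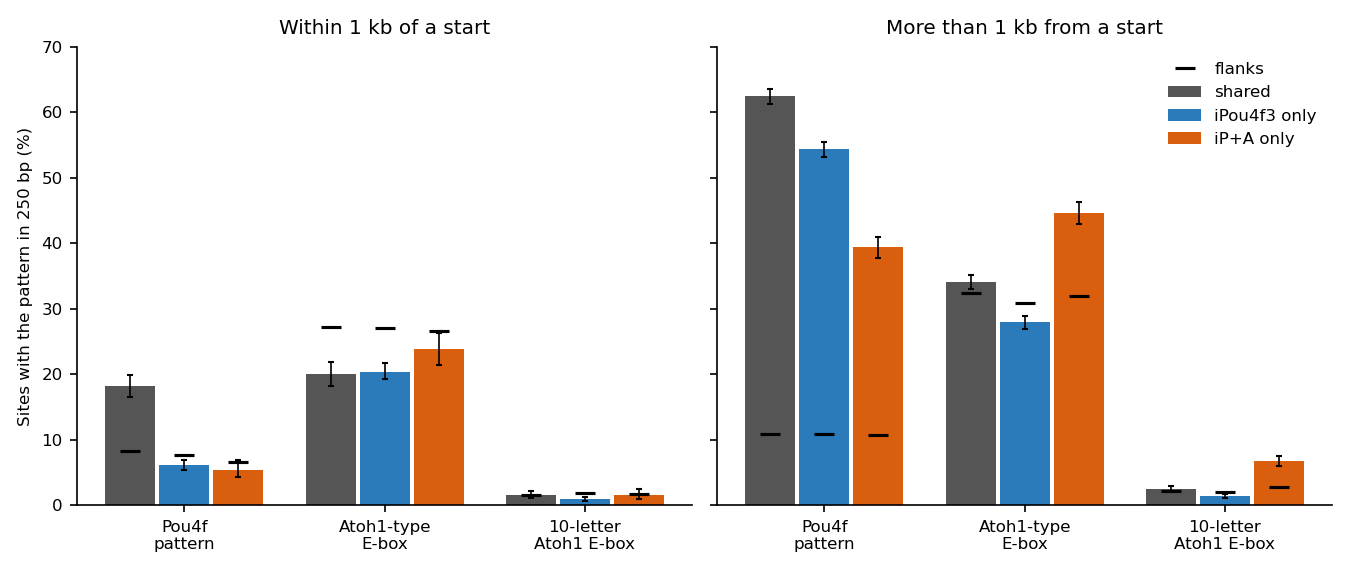
Percentage of sites holding each pattern in the central 250 bp, for distal and promoter sites outside dense clusters, with exact 95% intervals and short black lines at the share of the flanks. At distal sites the Pou4f pattern falls from 62.5% (shared) to 54.4% and 39.4%, while at promoters only shared sites (18.2%) stand above their flanks (8.30%).

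Both patterns together were present in 21.1% of distal shared sites, 15.1% of distal iPou4f3-only sites and 17.1% of distal iP+A-only sites outside dense clusters. Over all sites, neither pattern was found in 34.9% of shared, 49.7% of iPou4f3-only and 48.8% of iP+A-only sites. A missing match says only that these letters were not in the window.

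By annotation, iPou4f3-only sites lay nearest to transcription starts. Within 1 kb of a start were 35.8% of iPou4f3-only sites (35.0 to 36.6), 21.5% of shared sites (20.7 to 22.4) and 19.7% of iP+A-only sites (18.8 to 20.7), and the difference between the unshared classes was −16.1 points (−17.3 to −14.8). Outside dense clusters it was −12.4 points (−13.9 to −10.9). The median distance to the nearest start was 5624 bp, 12574 bp and 11144 bp in that order. Introns held 28.5%, 36.0% and 32.8%, and sequence between genes 33.7%, 40.6% and 44.9%. The median GC content of the central 250 bp was 44.8% at iPou4f3-only sites and 43.2% and 42.8% at the others, but the upper quartile was 62.8% against 50.4% and 50.8%. Short tandem repeats held 0.365%, 0.420% and 0.707% of sites.

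Each site was assigned to the gene with the nearest annotated start. Of 37310 annotated genes, 18.6% had a shared site, 23.7% an iPou4f3-only site and 12.0% an iP+A-only site. Of the 22380 protein-coding genes the shares were 22.0%, 29.5% and 13.8%, and 10177 genes (45.5%) had a site of any class. Only iPou4f3-only sites were assigned to 3541 protein-coding genes (15.8%), and only iP+A-only sites to 1015 (4.54%). Both kinds of unshared site were assigned to 1609 (7.19%), of which 922 had a shared site as well. The shares of protein-coding genes with a site of each class are the background for the gene lists below. The lists were not matched for gene length or for distance between genes.

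Among the genes with most shared sites outside dense clusters were Odz3, a teneurin of neuronal connectivity, with 10 sites (highest fold 24.6, given as the higher of both lists) and Auts2 with 9 (27.3). Satb1, a chromatin organiser, had 9 and Ppp3ca, a calcineurin subunit, had 8 with a highest fold of 27.7. The iPou4f3-only sites outside dense clusters were most numerous at Pde4d, a cyclic AMP phosphodiesterase, and Epb4.1l3, a membrane skeleton protein, with 10 each, followed by the polarity gene Pard3 and the axon guidance receptors Plxna2 and Robo1 with 8 each. Auts2 also had 8 iPou4f3-only sites. With dense clusters included, Prl2c3 led in each class, with 73 iP+A-only, 21 shared and 19 iPou4f3-only sites. Prl2c2 had 31 iP+A-only and 9 iPou4f3-only sites. Nearly all of these sites lay in dense clusters. Outside them, Gm7822 and Mtrr, an enzyme of methionine metabolism, led with 7 iP+A-only sites each, and Rbfox1 had 5.

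Among 16 regulators of hair cell development, 8 had a shared, 11 an iPou4f3-only and 10 an iP+A-only site. Pou4f3 counts among the 10 through 1 site, and an iP+A summit in its coding exons is treated with the cassettes below. The endogenous Pou4f3 locus had 5 shared sites, of which the strongest, 1302 bp upstream of the start, had folds of 18.2 in iPou4f3 and 8.38 in iP+A and carried an Atoh1 peak in iP+A and iGPA. Of its 8 sites of any class, 7 lay in a dense cluster, in which 12.5% of sites had repeated centres. Ikzf2, a regulator of outer hair cells, had a shared site 60910 bp upstream (folds 7.73 and 4.53). It also had 3 iPou4f3-only sites and an iP+A-only site, the latter with a fold of 4.82 and Atoh1 peaks in iP+A, iGPA and iAtoh1. Isl1, a LIM homeodomain factor, had 6 iPou4f3-only and 2 iP+A-only sites, all in a dense cluster with unrepeated site centres. Barhl1, a homeodomain factor of hair cells, had 2 shared sites, the stronger with folds of 5.23 and 4.64, beside 1 iPou4f3-only and 2 iP+A-only sites.

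Of 30 genes of hair cell structure and transduction, 11 had a shared, 14 an iPou4f3-only and 9 an iP+A-only site, and 11 had none. Myo6, a myosin of hair bundles, had a shared site 388 bp past the start with folds of 8.80 and 7.70 and an Atoh1 peak in iP+A. It had 2 more shared sites, 2 iPou4f3-only sites and no iP+A-only site. Whrn, a stereocilia scaffold, had 1 shared, 2 iPou4f3-only and 2 iP+A-only sites. Both iP+A-only sites had Atoh1 peaks in iP+A and iGPA, and the one 6824 bp upstream (fold 3.28) held both patterns. Calb2, the calcium buffer calretinin, had an iP+A-only site with a fold of 4.87 that held both patterns and had Atoh1 peaks in iP+A and iGPA, next to a shared site with a fold of 3.81 in each line. The tip link gene Cdh23 had 2 shared sites and 1 iPou4f3-only site. Its partner Pcdh15 had 1 iPou4f3-only and 2 iP+A-only sites, with no fold above 2.99.

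Of 22 POU class IV and sensory neuron regulators, 12 had a shared, 13 an iPou4f3-only and 9 an iP+A-only site. Pou4f3 is again among the 9 through 1 site. Pou4f1, the related factor of sensory neurons, had most sites, with 4 shared, 2 iPou4f3-only and 3 iP+A-only. The shared site 4331 bp past its start had folds of 6.54 and 6.11 and the one 5594 bp upstream 4.75 and 5.32. Among 19 proneural and neurogenic basic helix-loop-helix genes, 7 had a shared, 5 an iPou4f3-only and 6 an iP+A-only site. Neurog1, a determinant of inner ear neurons, had a shared promoter site 152 bp upstream with folds of 17.1 and 13.5 and no Atoh1 peak in iP+A, iGPA or iAtoh1. Its other site was iP+A only.

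Notch signalling, through which hair cells hold their neighbours back from the same fate, was represented by 25 genes, of which 9 had a shared, 14 an iPou4f3-only and 6 an iP+A-only site. The ligand Jag1 had 3 shared sites with folds of 5.35 to 7.37 in iPou4f3 and 3.17 to 5.21 in iP+A. It also had 4 iPou4f3-only sites and an iP+A-only promoter site (fold 2.83) with Atoh1 peaks in iP+A and iGPA. The target Hes1 had 3 iPou4f3-only and 2 iP+A-only sites, all in a dense cluster with unrepeated site centres, and no fold above 2.84. Among 31 axon guidance genes, 22 had a shared, 23 an iPou4f3-only and 16 an iP+A-only site. Plxna2 and Robo1 each had 4 shared, 8 iPou4f3-only and 2 iP+A-only sites.

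Of 20 neuronal markers 9 had a shared, 12 an iPou4f3-only and 10 an iP+A-only site. Elavl4, an RNA-binding protein of neurons, had 7 shared sites, the strongest with folds of 6.42 and 7.13, and 1 site of each unshared class. Of 17 neural progenitor POU and SOX genes, 9 had a shared, 9 an iPou4f3-only and 3 an iP+A-only site, and Sox6 had most with 5, 4 and 4. Of 23 mesoderm and endoderm regulators, 5 had a shared, 7 an iPou4f3-only and 8 an iP+A-only site, with most at Gata4. Of 17 pluripotency regulators, 6 had a shared, 6 an iPou4f3-only and 1, Tbx3, an iP+A-only site.

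**Figure D5:**
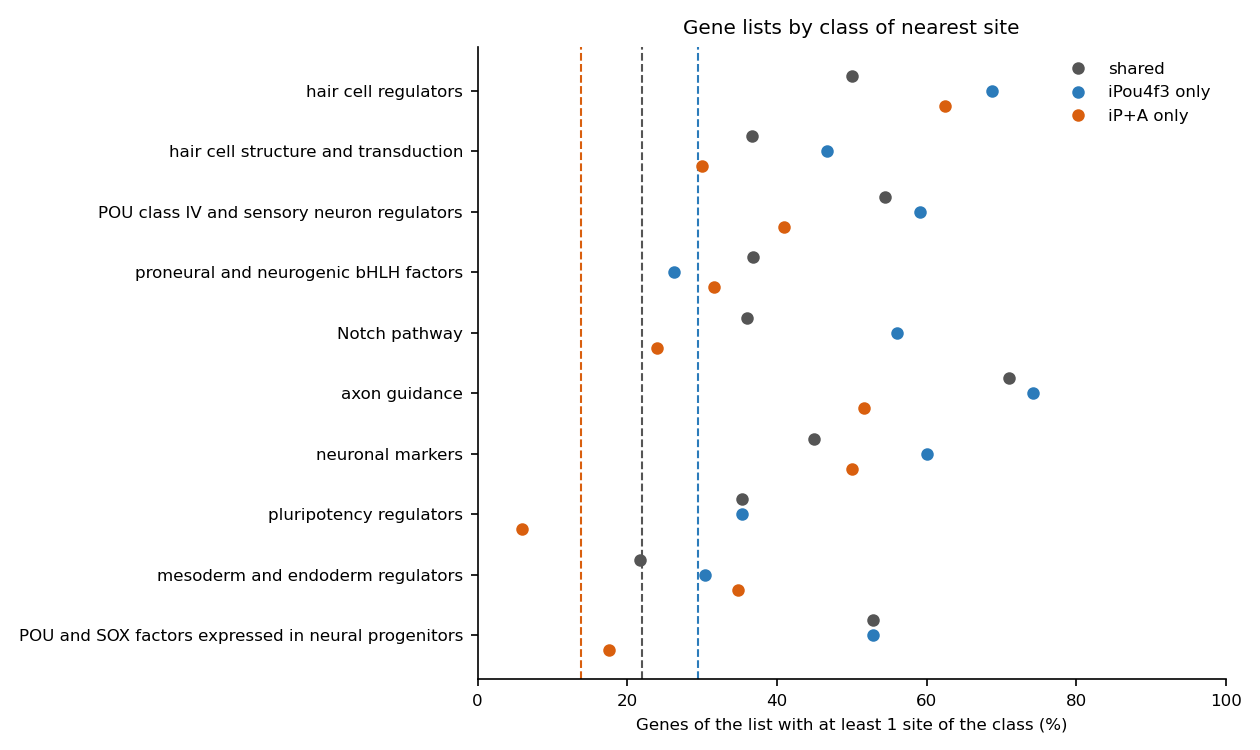
Percentage of the matched genes of each list with at least 1 site of each class at the nearest start, with dashed lines at the share of all protein-coding genes (22.0% shared, 29.5% iPou4f3 only, 13.8% iP+A only). Axon guidance genes stand highest in the shared and iPou4f3-only classes (22 and 23 of 31), and pluripotency regulators lowest in iP+A only (1 of 17).

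The coding sequences carried by the cassettes were looked at separately, since reads of an integrated transgene align to the exons of the endogenous gene. The iP+A list had a summit in the coding exon of Atoh1 (fold 6.68) and in the coding exons of Pou4f3 (fold 6.79), and both were iP+A-only sites. The kept iPou4f3 list had none in either gene, and a called peak in the exons of Pou4f3 (fold 2.44) was not kept. In Gfi1, which neither line carried, each list had 2 summits in exons, with highest folds of 3.45 and 4.19. The part of cassette DNA in these summits was not tested. Since Pou4f3 had 1 iP+A-only site in the gene lists, its place in their iP+A-only counts may rest on the summit in its exons.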

How the data were processed

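Peak lists of Pou4f3 ChIP-seq in iPou4f3 and iP+A were used, with 7 further lists for overlap. Groups were taken from the sample titles. According to the methods, reads were trimmed by the authors with Trimmomatic, aligned to mm9 with Bowtie 2 in its very-sensitive mode, cleared of duplicates with Picard, and filtered on mapping quality and the ENCODE blacklist. Peaks were called with MACS2 on merged ChIP replicates against merged inputs. Reads in repeated sequence can be lost or misplaced by such filters. The submitters' notes give no tool versions.

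The deposited fold enrichment is a ratio of ChIP fragments to local background at the summit, computed by the authors. The deposited −log10 p was computed by the authors' peak caller, and its q value was not used. The deposited summit lists give the positions of the kept peaks and a signal column that was not used. Fold enrichment was ranked within lists only, and the percentile ranks were taken among shared sites. Pileup and background were recovered from fold and p to a tolerance of 0.001. No unused sample column was present.

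Windows of 300 bp were joined at 1 bp of overlap, as in the study's methods. Genes, exons and starts came from the GENCODE annotation of NCBIM37, the assembly of mm9. Patterns were counted on both strands in 250 bp around the centre and 1000 bp to each side. Shares have exact Clopper-Pearson 95% intervals and differences have Newcombe intervals. Because each list was merged, no test across replicates was made. In the design table, a named gene is the list member with most sites or 1 of the 10 genes with most sites per class, and a named site is 1 of the 5 with the highest fold per class. Some genes that this rule names are not reported here. Further members named in the text were chosen after their values were seen. Members and gene lists were chosen with earlier results of these data known. Of 216 listed symbols 213 were matched, with Dfnb31 found as Whrn, and Map2, Tfcp2l1 and Sox1 were not used here. Alternatives were other window sizes, stricter p, equal list length, all called peaks, other patterns and each chromosome left out. Sites outside dense clusters and with usual background were added after seeing the data. Scripts were tested on simulated data, with Python 3.11.15, numpy 2.4.6, pandas 2.3.3, scipy 1.17.1, pysam 0.24.0 and matplotlib 3.10.9.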

Additional observations from a re-analysis of the deposited data

Results flagged for a closer look

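Called peaks that were absent from the summit lists were left out of the main comparisons. They were used only in the alternative with all called peaks and where kept and unkept peaks are set side by side. Some of them lay at sites counted as unshared. Of the iP+A-only sites, 7.69% (7.09 to 8.33) had a called iPou4f3 peak that was not kept. Of the iPou4f3-only sites, 7.34% (6.89 to 7.81) had a called iP+A peak that was not kept. Outside dense clusters the shares were 6.28% and 5.01%. Both were picked out because they are signal in data outside the main measurement.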

How the results depend on the processing

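No paired analysis was possible because each list was called on merged replicates, and for the same reason no replicate could be left out. The shared percentage of iPou4f3 sites was 38.6 with 100 bp windows, 48.1 with 1000 bp windows, 40.5 at a −log10 p of at least 10 in both lists, 34.4 at 20, 51.9 with lists of equal length and 47.9 with all called peaks. That of iP+A sites was 50.6, 64.1, 69.6, 84.3, 52.1 and 52.1 in the same order, and 64.9 outside dense clusters, which was added after seeing the data. Leaving out each chromosome gave 43.5 to 44.0 for iPou4f3 sites and 56.9 to 59.5 for iP+A sites, the highest without chromosome 14. The differences between iP+A-only and iPou4f3-only sites in iP+A Atoh1 peaks, Atoh1-type E-boxes, the Pou4f pattern, closeness to a start and short tandem repeats kept their direction, with intervals excluding 0, under the 12, 15, 15, 13 and 11 alternatives run for each. Their size did not stay constant. The Atoh1 difference was 60.3 points at a −log10 p of at least 20, the E-box difference 22.7 there and 4.42 with CAGCTG alone, and the Pou4f difference −19.0 at 10, −5.45 outside dense clusters, −2.96 without a mismatch and −15.0 at distal sites outside them. The start difference was −7.54 at 20. The difference in short tandem repeats, 0.342 points over all sites, was 1.36 at 10 and 6.41 (3.79 to 10.5) at 20, and lay between 0.198 and 0.649 under the other alternatives except those that left out a chromosome. Sites below the calling limit of a list are counted as absent from it, so depth limits the unshared counts.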
